A study of Capra hircus with 9 samples.

Results

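The NADPH supply genes are a set of 9 genes for enzymes that make NADPH or that work in the pentose phosphate pathway around those enzymes. Their rows were taken by gene symbol from the deposited table of goat mammary gland expression. Of the 9 symbols, 8 had a row among the 23499 genes of the table (PGD, PGLS, TKT, RPIA, IDH1, ME1, ME3 and NNT), and TALDO1 was not analysed here. All 8 are protein-coding genes, had the same span in RefSeq annotation ARS1.2 as in the table, and passed the filter on low values.

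The libraries came from mammary gland tissue of 9 healthy dairy goats of the Laoshan breed from China, 1 library per goat. Groups were late lactation (LL, 240 days postpartum), the dry period (DP, 300 days postpartum) and late gestation (LG, 140 days after mating), with 3 goats in each. The goats shared a farm and its feeding, were all in the third parity, averaged 4 years of age, and were slaughtered for tissue collection. Because each goat was sampled in 1 stage only, every comparison is between different animals, and p-values measure the spread between these goats.

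NADPH is the reducing agent of biosynthesis, and in a mammary gland that makes milk fat it is consumed by fatty acid synthase and by the enzymes of sterol synthesis. The cell makes it in the cytosol through the oxidative branch of the pentose phosphate pathway, through NADP-dependent isocitrate dehydrogenase and through malic enzyme, and in mitochondria through transhydrogenase and related dehydrogenases. Ruminants are known for carrying little carbon from glucose into milk fatty acids, and for a larger part of cytosolic isocitrate dehydrogenase in supplying NADPH in the udder than is usual in rodents.

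Levels are given as FPKM, a measure per transcript length and sequencing depth, as which the unlabelled values of the table were read. Libraries summed to 940676 to 1157015 during LL, 601250.2 to 616268 during DP and 733277 to 768157 during LG, and no read count stands behind a single value, so no counting error can be given. Values were divided by a median-ratio factor per library (0.498 to 0.605 in LL, 1.198 to 1.53 in DP and LG) to give scaled FPKM. A log2 fold change (given with its standard error, SE) is the difference of log2(scaled FPKM + 1), which understates changes of weakly expressed genes such as ME1. Without scaling, the median of the 14701 genes tested moved by 1.09 and 0.93 when DP and LG were set against LL, and by -0.18 between LG and DP, and the reference genes GAPDH, ACTB and YWHAZ lay between -0.40 and 0.13 in both comparisons with LL, where after scaling they were at -1.82 to -1.03. Sizes of changes against LL therefore depend on the scale, and so do the directions of PGD, PGLS and ME1 in DP and of IDH1 in LG. GAPDH, ACTB and YWHAZ close the table, within its last 1387 rows, where a larger share of genes was called than in the rows above. Ratios of genes within a library do not change with a factor per library.

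After scaling, transketolase (TKT), cytosolic isocitrate dehydrogenase (IDH1), 6-phosphogluconate dehydrogenase (PGD) and a mitochondrial malic enzyme (ME3) were lower in the dry gland than in the lactating gland, and without scaling TKT alone of these was called and PGD stood at 0.03. In late gestation TKT and IDH1 overlapped with late lactation, whereas PGD, ME1 and ME3 were lower. A gene was called when its adjusted p in limma was under 0.05 and its log2 fold change at least 1 in size. In DP against LL, 4 of 8 genes were called lower (PGD, TKT, IDH1 and ME3) and 0 higher, where 22.6% of all genes tested were called, 8.79% lower and 13.8% higher. In LG against LL, 3 of 8 were called lower (PGD, ME1 and ME3) and 0 higher, beside 17.3% of all genes, 6.61% lower and 10.7% higher. In LG against DP, TKT and IDH1 were called higher and 0 genes lower, beside 13.3% of all genes, 6.37% higher and 6.88% lower. By the adjusted p alone 5 members passed in each comparison, against 56.9%, 50.2% and 34.8% of all genes. Scaled FPKM of the stages did not overlap for 6, 5 and 5 of the 8 genes, beside 65.9%, 61.1% and 47.9% of all genes, so that these counts are read against a high background. The median log2 fold change of the 8 genes was -1.05, 0.04 and 0.28 in these comparisons, and that of all genes was 0.00, 0.02 and 0.01. The 3 comparisons share libraries by pairs, so their counts are not independent of each other. Without scaling the counts against LL split the other way, with PGLS, RPIA and NNT called higher and TKT lower in DP, and 5 genes called higher and 1 lower in LG. In bulk tissue, fewer cells of a type and less RNA per cell cannot be told apart.

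**Figure D1:**
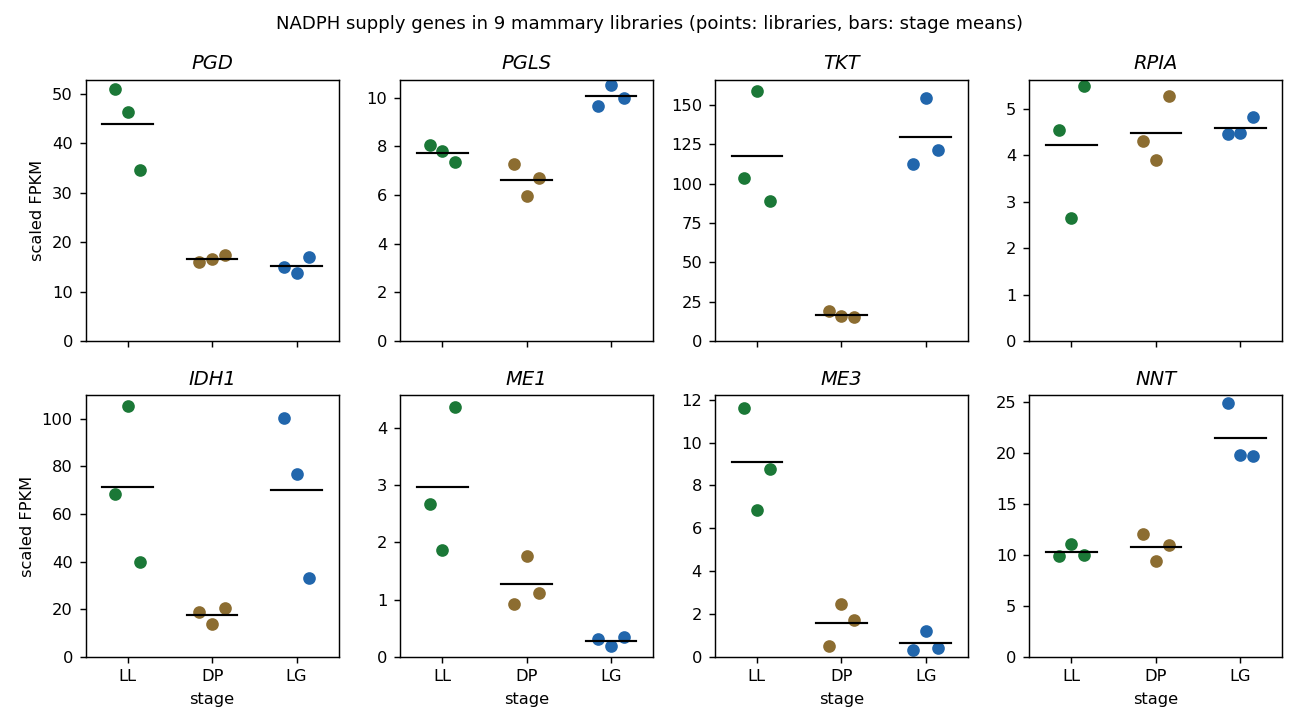
Scaled FPKM (linear axis from 0) of the 8 NADPH supply genes by stage, with 1 point per library and a bar at the mean of 3 libraries. TKT and IDH1 are low in DP alone, PGD is high in LL alone, NNT is high in LG alone and RPIA overlaps between all stages. The height of LL against the other stages depends on the scaling, and without it PGD has 24.0 FPKM in LL and 24.4 FPKM in DP and IDH1 overlaps between LL and DP.

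PGD (gene ID 102176986, chromosome 16, 41651621 to 41666295, minus strand) encodes 6-phosphogluconate dehydrogenase, the second NADPH-making step of the oxidative pentose phosphate branch. Its scaled FPKM was 51.0, 46.4 and 34.6 during LL, 16.0, 16.65 and 17.3 during DP and 15.05, 13.8 and 17.0 during LG. All 3 LL libraries lay above the other 6, and DP and LG overlapped. Its change was -1.33 on the log2 scale (SE 0.16, adjusted p = 0.000142) in the dry period and -1.46 (SE 0.16, adjusted p = 0.000117) in late gestation, both against LL, but without scaling these were 0.03 and -0.32 and neither was called. In the values as deposited PGD was at 24.0 ± 2.64 FPKM during LL, 24.4 ± 0.467 during DP and 19.1 ± 2.82 during LG (SD, n = 3 each). Set against the shift of all genes without scaling, its changes were -1.06 and -1.25. Between DP and LG the difference was -0.12 (95% interval -0.49 to 0.25).

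PGLS (gene ID 102173456, chromosome 7, 103187308 to 103195296, plus strand), which encodes the 6-phosphogluconolactonase that acts just before PGD, followed another course. Scaled FPKM was 8.06, 7.83 and 7.35 during LL, 7.26, 5.96 and 6.69 during DP and 9.64 to 10.5 during LG. On this scale the 3 stages did not overlap, with DP lowest and LG highest, but the steps were small. LG exceeded LL by 0.34 (adjusted p = 0.0323) and DP by 0.54 (adjusted p = 0.00590) on the log2 scale, both under the threshold of 1, and DP against LL was -0.20 (adjusted p = 0.160), which turned to 1.03 without scaling. LG against LL was 1.36 without scaling and was called. As deposited LL was the lowest stage, at 4.01 to 4.45 FPKM against 8.59 to 11.1 during DP and 11.5 to 13.1 during LG. As deposited, PGD exceeded PGLS in all 9 libraries, with 17.0 to 25.7 FPKM against 4.01 to 13.1.

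TKT (gene ID 102175812, chromosome 22, 47621855 to 47644986, plus strand) encodes transketolase, which moves carbon between the sugar phosphates of the non-oxidative branch and makes no NADPH itself. Scaled FPKM was 104, 159 and 89.2 during LL, 18.8, 15.7 and 15.2 during DP and 112, 154 and 122 during LG. The 3 DP libraries lay far below the other 6, among which LL and LG overlapped. TKT was 2.71 lower in DP than in LL on the log2 scale (adjusted p = 1.58e-05; 1.33 lower without scaling). The rise from DP to LG was 2.88 on the log2 scale (SE 0.23, adjusted p = 5.20e-05) and 2.67 without scaling, and the difference between LG and LL was 0.17 (95% interval -0.34 to 0.68, adjusted p = 0.554). On the deposited values TKT was also higher in LG (134 to 191 FPKM) than in LL (51.6 to 87.9), a log2 fold change of 1.34.

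RPIA (gene ID 102185282, chromosome 11, 46956337 to 46991498, minus strand), the isomerase that forms ribose 5-phosphate for nucleotide synthesis, gave no difference past its spread after scaling. Scaled FPKM was 4.54, 2.66 and 5.48 during LL, 4.30, 3.90 and 5.27 during DP and 4.45, 4.48 and 4.82 during LG. Every pair of stages overlapped. The 95% intervals were -0.34 to 0.54 for DP and -0.31 to 0.58 for LG against LL, and -0.41 to 0.47 for LG against DP, on the log2 scale. Without scaling RPIA was called higher in DP (1.21) and in LG (1.04) than in LL, beside shifts of all genes of 1.09 and 0.93.

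The ratio of transketolase to 6-phosphogluconate dehydrogenase, which no factor per library can alter, separated all 3 stages. TKT exceeded PGD by a factor of 2.62 in LL and 8.43 in LG, and was level with it in DP at 0.992 (geometric means of 3 libraries). On the log2 scale the ratio was 1.02, 1.78 and 1.37 during LL, 0.24, -0.09 and -0.18 during DP and 2.90, 3.49 and 2.84 during LG. The 3 stages formed an order without overlap, DP below LL below LG. Differences were -1.40 (DP minus LL), 1.69 (LG minus LL) and 3.09 (LG minus DP), each with p = 0.1 by a two-sided exact permutation test, the smallest that 3 against 3 libraries can give, and 0.15 after adjustment over 12 ratio comparisons. This ratio was chosen after the values were seen.

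IDH1 (gene ID 102190002, chromosome 2, 39392049 to 39412164, plus strand) encodes the cytosolic NADP-dependent isocitrate dehydrogenase. Scaled FPKM was 68.4, 105 and 40.02 during LL, 18.8, 13.7 and 20.5 during DP and 101, 76.9 and 33.2 during LG. DP lay below both other stages, while LL and LG each spread over more than a doubling and overlapped each other. IDH1 was 1.81 higher in LG than in DP on the log2 scale (SE 0.43, adjusted p = 0.0101; 1.59 without scaling). Its standard error was the largest of the 8 genes. LG against LL came to -0.05 (95% interval -1.02 to 0.91), and without LG replicate 3 or LL replicate 2 it was 0.41 or 0.26. Without scaling this difference was 1.103 (adjusted p = 0.0264) and IDH1 was called higher in LG, though the libraries of both stages still overlapped. DP against LL was -1.86 (adjusted p = 0.00513), and without scaling -0.49 (adjusted p = 0.258) and not called.

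ME1 (gene ID 100860863, chromosome 9, 10400508 to 10605347, minus strand) encodes the cytosolic malic enzyme, a source of NADPH in lipogenic tissue. Its scaled FPKM was 2.67, 1.86 and 4.36 during LL, 0.923, 1.76 and 1.12 during DP and 0.317, 0.186 and 0.350 during LG. The stages did not overlap and the LG libraries were all lowest, though ME1 was the weakest or next to weakest member throughout. In LG against LL the log2 fold change was -1.58 (SE 0.22, adjusted p = 0.000440), and without scaling -0.93, short of the threshold. DP against LL at -0.78 (adjusted p = 0.0150) and LG against DP at -0.80 (adjusted p = 0.0205) were not called, and with a pseudocount of 0.1 in place of 1 they were -1.13 and -1.81 and passed. LG against DP was also called lower without scaling (-1.05) and with each library divided by its sum without the 10 highest genes (-1.07), while DP against LL without scaling was 0.12.

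**Figure D2:**
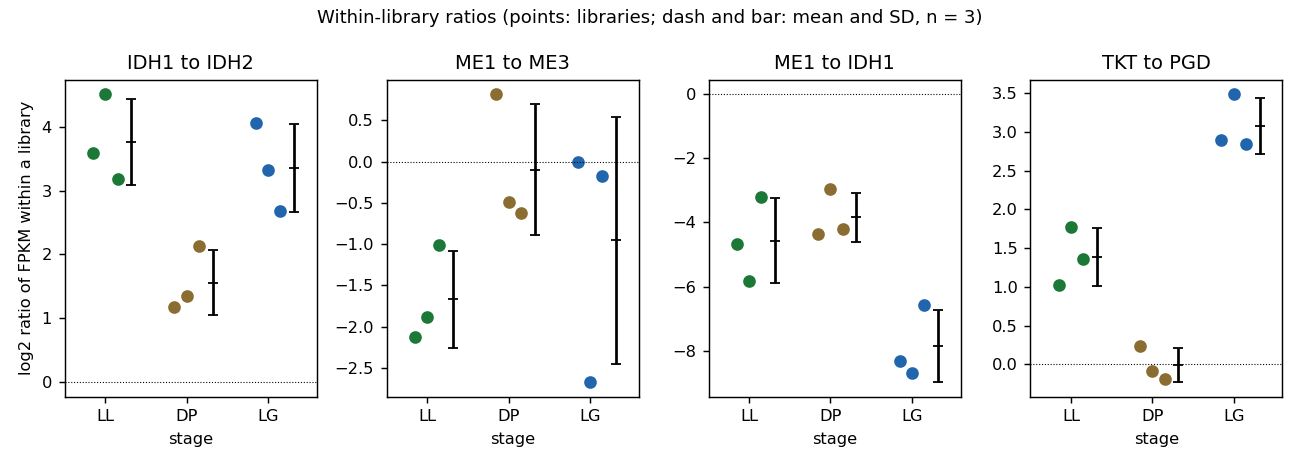
Log2 ratios of the FPKM of gene pairs within each library, which a factor per library does not change. Points are libraries, and the dash and bar beside them are the mean and SD of 3 libraries. The ratio of TKT to PGD separates the 3 stages, that of IDH1 to IDH2 is low in DP, and that of ME1 to IDH1 is low in LG.

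Within libraries, the cytosolic IDH1 exceeded its mitochondrial counterpart IDH2 by a factor of 13.5 during LL, 2.95 during DP and 10.2 during LG. The log2 ratio was 3.59, 4.51 and 3.18 during LL, 1.19, 1.36 and 2.14 during DP and 4.05, 3.31 and 2.67 during LG, so that DP stood below the other stages without overlap. The difference was -2.20 in DP against LL and 1.79 in LG against DP (two-sided exact permutation test, p = 0.1 each, adjusted 0.15), and -0.41 in LG against LL (p = 0.5 in the same permutation test). IDH2 by itself had log2 fold changes of 0.24 and 0.30 when DP and LG were set against LL, and of 0.07 between LG and DP, none of them called. Without scaling IDH2 was called higher in DP (1.40) and in LG (1.26) than in LL, with 2.56 to 2.83 FPKM during LL, 6.72 to 12.6 during DP and 6.83 to 9.54 during LG, where IDH1 in DP against LL was at -0.49 and not called. How much of the lower ratio in DP lies with either gene therefore depends on the scale.

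ME1 had a lower level than IDH1 in every library. The log2 ratio of ME1 to IDH1 was -4.68, -5.82 and -3.20 during LL, -4.35, -2.96 and -4.20 during DP and -8.31, -8.69 and -6.57 during LG. LG lay below both other stages, with differences of -3.29 against LL and -4.02 against DP (two-sided exact permutation test, p = 0.1 each, adjusted 0.15). LL and DP overlapped, with a difference of 0.73 (p = 0.4 in the same permutation test, adjusted 0.48).

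ME3 (gene ID 102184694, chromosome 29, 8310682 to 8537322, plus strand) encodes a mitochondrial NADP-dependent malic enzyme. Scaled FPKM was 11.6, 6.85 and 8.79 during LL, 0.524, 2.46 and 1.72 during DP and 0.317, 1.19 and 0.396 during LG. The LL libraries were all higher than the other 6, and DP and LG overlapped. LG against LL gave -2.64 (SE 0.31, adjusted p = 0.000158), which remained called without scaling at -1.77, and DP against LL gave -2.03 (adjusted p = 0.000565), which without scaling was -0.95 and was not called. LG against DP was -0.61 (95% interval -1.31 to 0.09).

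Of the malic enzymes, ME3 exceeded ME1 in LL by a mean of 1.67 ± 0.58 on the log2 scale (SD, n = 3), while in DP the log2 ratio of ME1 to ME3 was -0.10 ± 0.79 (SD, n = 3). The change from LL to DP was 1.57 without overlap (two-sided exact permutation test, p = 0.1, adjusted 0.15). In LG the ratio was 0.00, -2.68 and -0.18, with LG replicate 2 far from the other LG libraries and both genes at 0.23 to 1.47 FPKM. The differences of LG from LL (0.72) and from DP (-0.85) lay within the spread (two-sided exact permutation tests, p = 0.4 and 0.6). ME2, the remaining malic enzyme gene, had log2 fold changes of 0.36, 0.18 and -0.18 in the 3 comparisons. As deposited ME2 was at 2.07 to 4.50 FPKM during LL, below both DP (7.41 to 12.8) and LG (6.94 to 9.05). Its value was linked to that of its neighbour ELAC1, so ME2 and ELAC1 were not independent of each other, and which of them was measured was not tested.

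NNT (gene ID 102174599, chromosome 20, 31125839 to 31219781, minus strand) encodes the transhydrogenase of the inner mitochondrial membrane, which makes NADPH from NADH. Scaled FPKM was 9.82, 11.1 and 10.01 during LL, 12.0, 9.37 and 10.9 during DP and 24.8, 19.8 and 19.6 during LG. LL and DP overlapped, and all LG libraries lay above both. LG exceeded LL by 0.98 (SE 0.14, adjusted p = 0.000541) and DP by 0.93 (SE 0.14, adjusted p = 0.00120) on the log2 scale, both just under the threshold of 1. Under several alternatives the difference from LL reached the threshold, at 1.00 with quantile normalization and 2.05 without scaling. DP against LL was 0.05 (95% interval -0.27 to 0.38), and without scaling it was 1.33, beside a shift of all genes of 1.09.

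**Figure D3:**
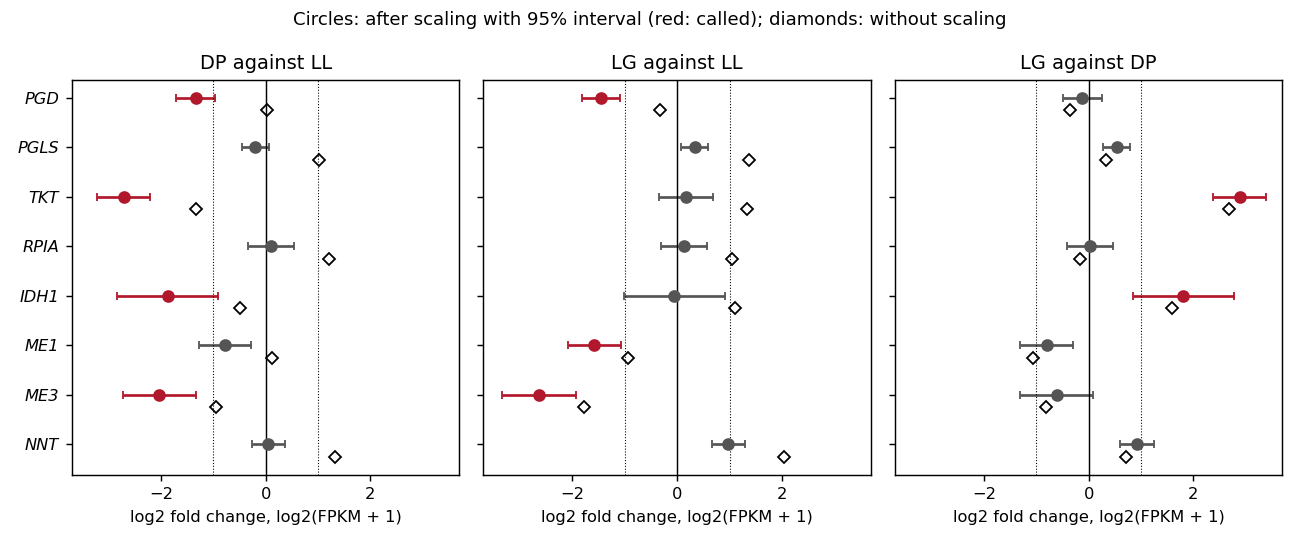
Log2 fold changes of the 8 genes in the 3 comparisons (dotted lines: the threshold of 1). Circles give the values after scaling with their 95% intervals, in red where called, and open diamonds the values without scaling. In both comparisons with LL the diamonds lie to the right of the circles for all 8 genes, which turns PGLS, PGD and ME1 above 0 in DP and IDH1 above 0 in LG. LG against DP moves by less than 0.3 for all of them, and RPIA alone changes sign there.

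Adding up the 8 genes gives the set as the tissue carried it. The summed scaled FPKM was 267 ± 70.7 during LL, 75.6 ± 5.34 during DP and 252 ± 39.5 during LG, and as deposited it was 146 ± 36.8, 111 ± 10.2 and 313 ± 38.0 FPKM (SD, n = 3 each). As a share of all FPKM of a library, the set held 0.0112% to 0.0169% during LL, 0.0162% to 0.0199% during DP and 0.0354% to 0.0463% during LG.

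The make-up of that sum shifted between the stages in a way that no factor per library changes. TKT held 43.7% ± 3.44 of it during LL, 21.9% ± 2.36 during DP and 51.9% ± 8.79 during LG (SD, n = 3 each). The shares of IDH1 overlapped between all stages, at 25.7% ± 5.45, 23.2% ± 3.22 and 27.0% ± 10.8 (SD, n = 3 each). PGD was at 13.6% to 19.6% during LL, 20.3% to 24.0% during DP and 4.90% to 8.20% during LG, so the LG libraries were all below the rest. The minor members PGLS, RPIA and NNT had larger shares in every DP library than in any other, with NNT at 14.2% ± 0.936 there against 4.01% ± 0.902 in LL and 8.60% ± 1.37 in LG (SD, n = 3 each). As described below, these minor members stand above a block of rows that holds PGD, TKT, IDH1 and ME3. The part of that block in the shares was not tested. ME1 and ME3 held 1.25% and 3.63% on average in LL and 0.118% and 0.245% in LG.

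**Figure D4:**
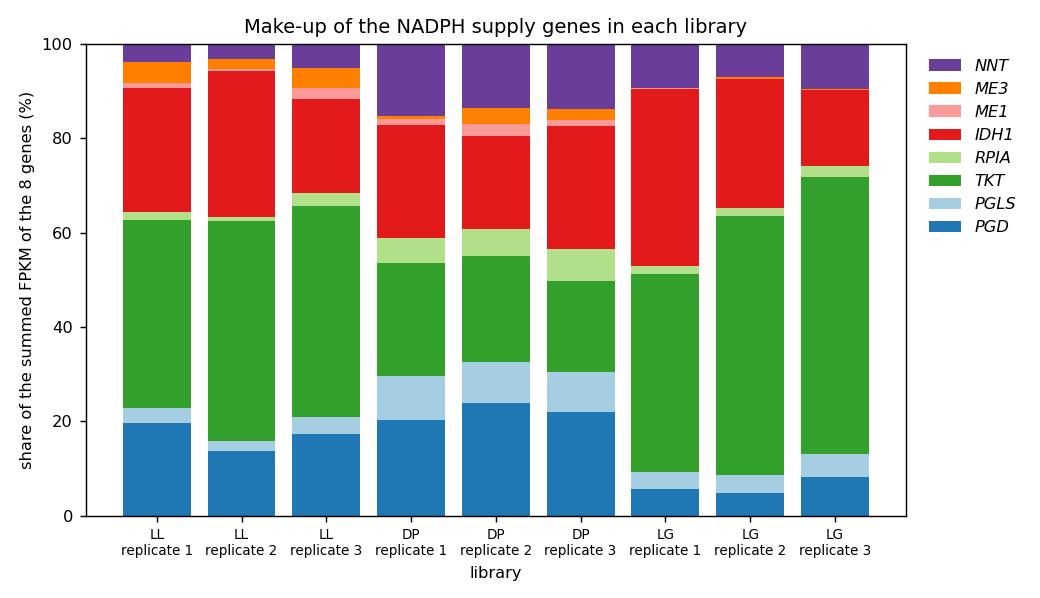
Share (%) of each of the 8 genes in their summed FPKM, with 1 bar per library. TKT and IDH1 fill most of the LL and LG bars, while in the 3 DP bars PGD, TKT and IDH1 are about equal and NNT, PGLS and RPIA are broader than elsewhere.

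Ordered by FPKM, which compares genes per length, LL ran TKT, IDH1, PGD, NNT, ME3, PGLS, RPIA and ME1. Libraries overlapped between neighbours in that order except from PGD to NNT and from PGLS to RPIA. In DP the leaders IDH1 (26.0 ± 5.44 FPKM), PGD (24.4 ± 0.467) and TKT (24.4 ± 3.75) could not be ranked (SD, n = 3 each), and NNT, PGLS, RPIA and the malic enzymes followed in steps without overlap, ME3 and ME1 excepted. LG ran TKT, IDH1, NNT, PGD, PGLS, RPIA, ME3 and ME1, with no overlap between neighbours other than ME3 and ME1. NNT at 24.4 to 29.7 FPKM thus stood above PGD at 17.0 to 22.3 in LG, whereas in LL PGD stood above it, with 21.0 to 25.7 against 4.89 to 6.13.

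Across the 9 libraries, which share their stages, the log2 values of the members after scaling fell into a few courses. PGD and ME3 correlated at a Pearson r of 0.92, TKT and IDH1 at 0.89, ME1 and ME3 at 0.88, and PGLS and NNT at 0.86, and ME1 ran opposite to NNT at -0.85. Of all genes with a symbol whose values are not linked to a neighbour, the one most like each member was MRAP2 for PGD (r = 0.992), LRP5 for PGLS (0.976), SLC27A1 for TKT (0.992), BLOC1S4 for RPIA (0.953), GLTP for IDH1 (0.970), PHF19 for ME1 (0.984), KAT5 for ME3 (0.978) and EPHA7 for NNT (0.987), each over 9 libraries. These correlations describe the course over 3 stages.

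Other genes around NADPH were followed as lists. Of 14 further genes that make NADPH or belong to the pentose phosphate pathway, 11 were tested. In DP against LL 1 was called higher and 2 lower, for LG there were 0 and 2 against LL and 1 and 1 against DP, with medians of 0.17, 0.19 and -0.03. MTHFD2, a dehydrogenase of mitochondrial folate metabolism, was called lower in DP than in LL (-1.12; 0.22 without scaling) and lower again in LG (-2.23 against LL and -1.12 against DP). SHPK, the sedoheptulose kinase, was called higher in LG than in DP at 1.66. RBKS, which phosphorylates ribose, was called higher in DP than in LL at 1.25, from at most 0.382 scaled FPKM in LL. TKTL2, a gene related in sequence to TKT, was called lower than in LL both in DP (-2.21) and in LG (-1.54; -0.50 and not called without scaling), and its value was linked to those of neighbouring rows. How reads shared by related genes were assigned is not given in the sources used here. RPE, the epimerase of the non-oxidative branch, and H6PD, which makes NADPH in the endoplasmic reticulum, had log2 fold changes of -0.03 to 0.22 and 0.17 to 0.39 and were not called, and the value of H6PD was linked to that of SPSB1. Without scaling both were called higher than in LL, RPE at 1.40 in DP and 1.16 in LG and H6PD at 1.49 in both.

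The 4 tested genes of NAD phosphorylation and ribose phosphate use included NADK, the cytosolic NAD kinase that makes the NADP pool. NADK was at 15.4 to 16.7 scaled FPKM during LL, 16.0 to 19.7 during DP and 24.3 to 29.5 during LG, above LL by 0.75 in LG (adjusted p = 0.00194), under the threshold. As deposited it was at 7.69 to 10.1 FPKM during LL, below both DP (23.1 to 30.1) and LG (30.0 to 38.7). PGM2, a phosphopentomutase, was called lower in DP than in LL (-2.25; -0.98 and not called without scaling) and higher in LG than in DP (2.62), and no other gene of this list was called. Its scaled FPKM was 19.9 to 24.4 during LL, 2.97 to 6.24 during DP and 28.5 to 29.5 during LG. As with TKT, all 3 DP libraries lay below those of LL and LG.

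Of 10 citrate and malate shuttle genes, which carry carbon to cytosolic isocitrate dehydrogenase and malic enzyme, 3 were called lower in DP than in LL, namely the cytosolic aconitase ACO1 (-1.88; -0.56 without scaling), the citrate carrier SLC25A1 (-1.57; -0.25 without scaling) and the citrate synthase CS (-1.03; 0.35 without scaling, and linked to PAN2 and CNPY2). ACLY, the citrate lyase, was called higher in DP and in LG than in LL, by 1.06 and 1.03. LG exceeded DP in PC (1.23), the pyruvate carboxylase, and in ACO1 (1.12), and it exceeded LL in the dicarboxylate carrier SLC25A10 (1.28). The list medians were -0.73 and 0.02 for DP and LG against LL, and 0.74 for LG against DP.

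The NADPH-using genes of fatty acid and sterol synthesis had larger median log2 fold changes than the supply genes in each comparison. Of 9 tested, 8 were called lower in DP than in LL with a median of -2.58, 5 were called lower in LG than in LL with a median of -1.22, and 4 were called higher in LG than in DP with a median of 0.88. FASN, the fatty acid synthase, was at 617 to 1500.3, 39.1 to 58.4 and 290.1 to 508, with log2 fold changes of -4.36 (DP) and -1.33 (LG; -0.15 without scaling) against LL and of 3.03 for LG against DP, and its value was linked to that of its neighbour CCDC57. TM7SF2 and DHCR7, both sterol reductases, were also called lower than in LL in DP (-3.57 and -2.59) and LG (-2.96 and -1.93), and without scaling DHCR7 in LG was at -0.88 and not called. HSD17B12, a reductase of fatty acid elongation, was called lower in LG than in LL at -1.82 and stood at -0.71 without scaling. HSD17B7 (2.12) and SQLE (1.92), both of sterol synthesis, were called higher in LG than in DP. In scaled FPKM, both supply and use were mixed in LG against LL. Among the supply genes IDH1 and TKT overlapped with LL, while PGD, ME1 and ME3 lay below it. Among the NADPH-using genes SQLE and HSD17B7 overlapped with LL, while TM7SF2, DHCR7, HSD17B12 and FASN lay below it. As deposited, PGD and FASN in LG did not lie below LL.

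Genes of glutathione and thioredoxin metabolism and other reductases had medians nearer to 0 than those of fatty acid and sterol synthesis. This list holds reductases that take electrons from NADPH, and also peroxidases, peroxiredoxins and thioredoxin, which receive them through glutathione or the thioredoxin reductases. Of 12 tested, CBR4 (-1.92; -0.65 without scaling) and GPX4 (-1.28; 0.08 without scaling) were called lower in DP than in LL, GPX4 (-1.07; 0.07 without scaling) in LG than in LL, and CBR4 (1.25) and BLVRB (1.08) were called higher in LG than in DP. The medians were -0.43, -0.11 and 0.24. CBR4 encodes a subunit of the mitochondrial fatty acid synthesis reductase, GPX4 a peroxidase that reduces lipid peroxides with glutathione and BLVRB a biliverdin reductase.

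**Figure D5:**
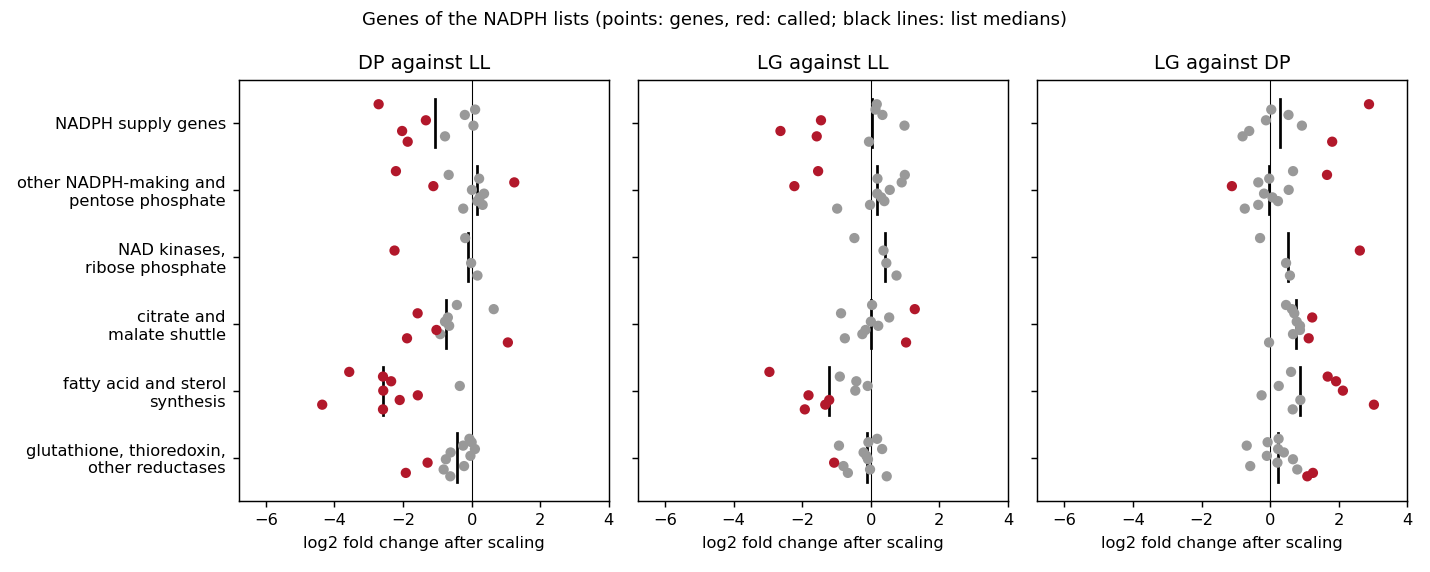
Log2 fold changes after scaling of the NADPH supply genes and of the other NADPH lists, with 1 point per gene, red where called, and a black line at the median of each list. The list of fatty acid and sterol synthesis lies furthest to the left in both comparisons with LL, at medians of -2.58 and -1.22, and furthest to the right in LG against DP, at 0.88. Without scaling the median of all genes moves to the right by 1.09 and 0.93 against LL, and PGD, GPX4, CS and MTHFD2, called lower in DP after scaling, then lie above 0 there.

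Markers of cell types moved with the stages, and all 6 luminal epithelial markers were above 0 in every library. The summed scaled FPKM of these 6 was 819 to 1106 during LL, 269 to 522 during DP and 733 to 891 during LG, but without ELF5 it was 343 to 431, 243 to 478 and 324 to 393, and 1 of the 6 (ELF5) was called lower in DP than in LL. As deposited, the sum of all 6 was 496 to 612 FPKM during LL, 410 to 753 during DP and 904 to 1170 during LG. Without ELF5 it was 171 to 238, 371 to 689 and 395 to 516 FPKM, so that LL then lay below both other stages. Fibroblast markers were at 212 to 324 during LL, 502 to 2392 during DP and 521 to 954 during LG (5 of 6 called higher in DP than in LL and 2 of 6 in LG than in LL). Leukocyte markers were at 32.5 to 39.0, 72.4 to 112 and 24.9 to 36.9 (3 of 5 tested called higher in DP than in LL, 1 lower in LG than in LL). Adipocyte markers were at 266 to 401 during LL, 4.77 to 24.6 during DP and 22.02 to 27.0 during LG, of which CIDEA made up nearly all in LL, and without it they were at 7.61 to 10.3, 3.65 to 23.5 and 2.90 to 5.40, with LEP at 0 and ADIPOQ at 0.080 to 0.23 FPKM in the LL libraries (2 of 4 tested called lower both in DP and in LG than in LL). Endothelial markers were at 103 to 133, 125 to 180 and 64.9 to 90.3, and basal and myoepithelial markers at 119 to 159, 99.1 to 411 and 162 to 228 (0 of 6 and 1 of 5 called higher in DP, 0 of 6 and 2 of 5 in LG, each against LL). In these sums PECAM1, KRT5 and KRT14 had values linked to those of neighbouring rows. KRT5 was at 333 scaled FPKM in DP replicate 2, the library with the sum of 411, against 71.3 and 118 in DP replicates 1 and 3. In LG against DP, ELF5, OXTR and 1 adipocyte marker (CIDEA) were called higher, and 4 of 5 leukocyte, 2 of 6 fibroblast and 1 of 6 endothelial markers lower. Set against LL, several of these sums depend on the scale. As deposited, leukocyte markers were at 18.0 to 21.6 FPKM during LL, 104 to 171 during DP and 32.8 to 45.5 during LG. Endothelial markers were at 54.8 to 80.7, 181 to 259 and 77.8 to 118, and basal and myoepithelial markers at 59.2 to 96.1, 151 to 593 and 194 to 299. On both scales the fibroblast sums of DP and LG lay above LL and the adipocyte sums below it. The part of these cells in the levels of the NADPH supply genes was not tested.

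The place of a gene in the table also moved with the calls. PGD, TKT, IDH1 and ME3 stand in an alphabetical block of the last 1387 rows, and PGLS, RPIA, ME1 and NNT in the 22112 rows above it. All 4 members called in DP against LL, both of those called in LG against DP and 2 of 3 in LG against LL stand in the block. Within the block 67.6% of genes were called in DP against LL and 17.9% above it. For LG the shares were 53% and 13.6% against LL, and 63.7% and 7.99% against DP. The reference genes GAPDH, ACTB and YWHAZ close the table and were counted with the block. Shares of the members, and the ratios of ME1 to IDH1 and of ME1 to ME3, set rows of the block against rows above it. What the block stands for is not given in the sources used here. Its part in the calls, shares, ratios and reference genes was not tested. With scaling factors from the rows above the block, the count of members called was 4, 3 and 2, as before.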

How the data were processed

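RNA-seq libraries (TruSeq, Illumina HiSeq) of 9 Laoshan goats were analysed from the gene table that the authors deposited. The submitters' processing notes name FastQC, Trimmomatic, HISAT2, SAMtools and HTSeq, and the methods of the study name StringTie for FPKM. The table names neither unit nor build, and the values that the authors deposited were read as FPKM from their decimals and unequal sums. Which tool produced them is not given in the sources used here.

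Values were divided by median-ratio factors from 15905 genes, and log2(value + 1) was fitted with limma 3.58.1 in R 4.3.3 (eBayes with trend, 3 stages in 1 fit, no covariates) for 14701 genes that reached 0.5 FPKM in 3 or more libraries, with Benjamini-Hochberg adjustment over all of them. Ratios and sums were computed in Python 3.11.15 with pandas 2.3.3 and scipy 1.17.1. A search of 122854 neighbouring pairs marked 1510 genes whose values follow a neighbour's to within 1% of range ("linked"). Each pair was fitted as a straight line plus a term from a fixed offset per library. The fit was tested on simulated data.

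Members and lists were chosen with earlier results of these data known. Named were all members, of the other lists the genes called (at most 3 per list and comparison), IDH2, ME2, RPE, H6PD and FASN, and for each member the most correlated gene with a symbol. NADK was added after its values were seen. Some genes of the lists are not reported here and were left out of the list counts and medians. Alternatives covered scaling, pseudocount, filter, trend, call rule, libraries in the fit, the replicate number as a block and each library left out. No sequence was printed.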

Additional observations from a re-analysis of the deposited data

How the results depend on the processing

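Of 405 values of single genes under the alternatives, 364 kept their direction and side of the threshold. With the direction kept, 18 came to pass the threshold and 6 no longer passed. The other 17 reversed direction, whether or not their call changed. Most of the changes came with another scaling. Of the values without scaling, 8 were kept, 7 came to pass, 4 no longer passed and 5 reversed. The filters, the replicate block and the fit without trend left each log2 fold change as it was. They could therefore not reverse a value, and the pooled count does not measure how the calls depend on the scale. Without scaling, DP against LL was 0.030 for PGD, 1.03 for PGLS and 0.12 for ME1, LG against LL was 1.103 for IDH1, and LG against DP was -0.17 for RPIA. With each library divided by its sum without the 10 highest genes, these were 0.48 for PGLS, 0.22 for IDH1 and -0.37 for RPIA, and PGD in DP against LL was -0.59 and not called. Quantile normalization gave -0.89 for PGD, not called, and 0.22 for IDH1 in LG against LL. Leaving out 1 library reversed values near 0. RPIA ran from -0.15 (without LL replicate 2) to 0.27 in DP against LL, from -0.11 (again without LL replicate 2) to 0.305 in LG against LL, and from -0.041 (without DP replicate 2) to 0.13 in LG against DP, where it was -0.0007 without LG replicate 3. NNT in DP against LL ran from -0.019 (without DP replicate 1) to 0.14, TKT in LG against LL from -0.014 (without LL replicate 3) to 0.40, and IDH1 in LG against LL from -0.42 to 0.41, with 0.26 without LL replicate 2 and the highest value without LG replicate 3. The count of members called in DP against LL was 3 to 5 under every alternative, though without scaling 3 of its 4 were higher. In LG against LL it was 5 by the adjusted p alone and 6 without scaling (5 higher and 1 lower), and in LG against DP 5 by the adjusted p alone. The cause of these changes was not tested. ME1 was not tested under the filter of 2 FPKM, where 2 members were called in LG against LL. The log2 ratio of ME1 to ME3 in LG against DP ran from -1.33 to 0.0083 with each library left out, the last without LG replicate 2.

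Replicate numbers are shared between stages but did not pair the libraries. The deviations of same-numbered libraries correlated at 0.15, 0.01 and 0.09 in DP and LL, 0.06, -0.05 and 0.004 in LG and LL and 0.20, -0.11 and 0.16 in LG and DP. Libraries of different numbers correlated at -0.16 to 0.07, -0.07 to 0.07 and -0.22 to 0.07 in these pairs of stages. Whether same-numbered libraries shared any handling was not tested. With the replicate number as a block, 4, 3 and 2 members were called in DP against LL, LG against LL and LG against DP, as without it. The planned ratios of TKT and PGD to TALDO1 were not run, because TALDO1 was not analysed here. Scaling from the rows above the alphabetical block and leaving out linked genes were chosen after seeing the data and changed no call of a member. Depth per gene is unknown, so no counting error stands behind the low values of ME1 and ME3 in LG.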
